A study of Homo sapiens with 2 samples.

Results

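The nuclear genes for the subunits of mitochondrial complex I and for the assembly factors that carry the same NDUF symbols were measured by RNA-seq in HEK293 cells. Members were the protein-coding genes of GENCODE v44 whose symbol began with NDUFA, NDUFB, NDUFC, NDUFS or NDUFV and held no hyphen. This rule gave 47 of the 59026 matched genes, with 393 transcripts. Of these genes, 37 encode subunits of complex I, 8 are NDUFAF assembly factors, and the remaining 2 are NDUFA4 and its paralogue NDUFA4L2. The 7 MT-ND genes of the mitochondrial genome, which encode the other core subunits, are set beside them.

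The series held 1 group of 2 libraries, HEK293 replicate 1 and replicate 2, made by TruSeq from rRNA-depleted total RNA of the HEK293 Flp-In T-Rex line, for which no treatment is given. HEK293 is an established line from human embryonic kidney. Its Flp-In T-Rex derivative holds a genomic site for inserting a transgene that tetracycline can switch on. The labels do not say whether the replicates were separate cultures, so the spread between them may be technical. Replicate 1 held 25158962 estimated counts and replicate 2 held 27143860. With 1 group there was no comparison between conditions, and a sign-flip test over 2 libraries cannot give a two-sided p below 0.5, so values are described with their SD and no p-value is given.

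The label was checked against marker genes. VIM, an intermediate filament gene of these cells, held 16407 and 15363 normalised counts and NEFL held 1868 and 1848. All 7 markers listed for HEK293 were above 0 in both libraries, the lowest being NEFM at 14.5 and 18.7. ALB, PTPRC, DCN, CDH5 and MYH7, which mark liver, blood, fibroblast, endothelial and muscle cells, were listed at 0 in both libraries, and a count of 0 allows up to 3 counts. Other markers on that list were above 0. HBB had 179 and 182 normalised counts, COL1A1 had 156 and 291, COL3A1 had 18.8 and 18.4, and APOA1 had 8.46 and 3.71. PECAM1, at 1.06 and 0.927, and ACTA1, at 2.13 and 0.937, were under 3 counts. COL3A1 was about as high as NEFM, and HBB and COL1A1 were above NEFM and some further markers listed for HEK293 in both libraries. The part of other cell types in the results was not tested. In total RNA of a culture, fewer cells of a type and less RNA per cell cannot be told apart.

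Complex I, or NADH:ubiquinone oxidoreductase, is the entry point of the respiratory chain in the inner mitochondrial membrane. Its matrix arm takes electrons from NADH through a flavin and a row of iron-sulfur clusters to ubiquinone, and its membrane arm pumps protons. Core subunits, conserved from bacteria, carry the catalytic and pumping parts, and accessory subunits surround them. The membrane-embedded core subunits are made inside mitochondria from the MT-ND genes, while every other subunit is imported, so both genomes have to supply the complex. Assembly factors help to build the complex and are absent from the finished enzyme.

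Together the 37 nuclear subunit genes held 0.263% of all estimated counts in replicate 1 and 0.256% in replicate 2, and the 47 members held 0.289% and 0.279%. The 7 MT-ND genes held 0.0425% and 0.0506%. To compare genes, each transcript's estimated count was divided by its length and scaled to 1000000 per library, and the transcripts of a gene were summed. The quantity is called the length-normalised level here, and all levels between genes are on this scale. The median level of the nuclear subunit genes was 73.4 ± 5.96 (SD, n = 2), with 77.6 in replicate 1 and 69.2 in replicate 2. Among 13992 protein-coding genes averaging 10 normalised counts or more, the median subunit gene stood at percentile 94.0. Of the 37 subunit genes, 31 lay at or above percentile 90.

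**Figure D1:**
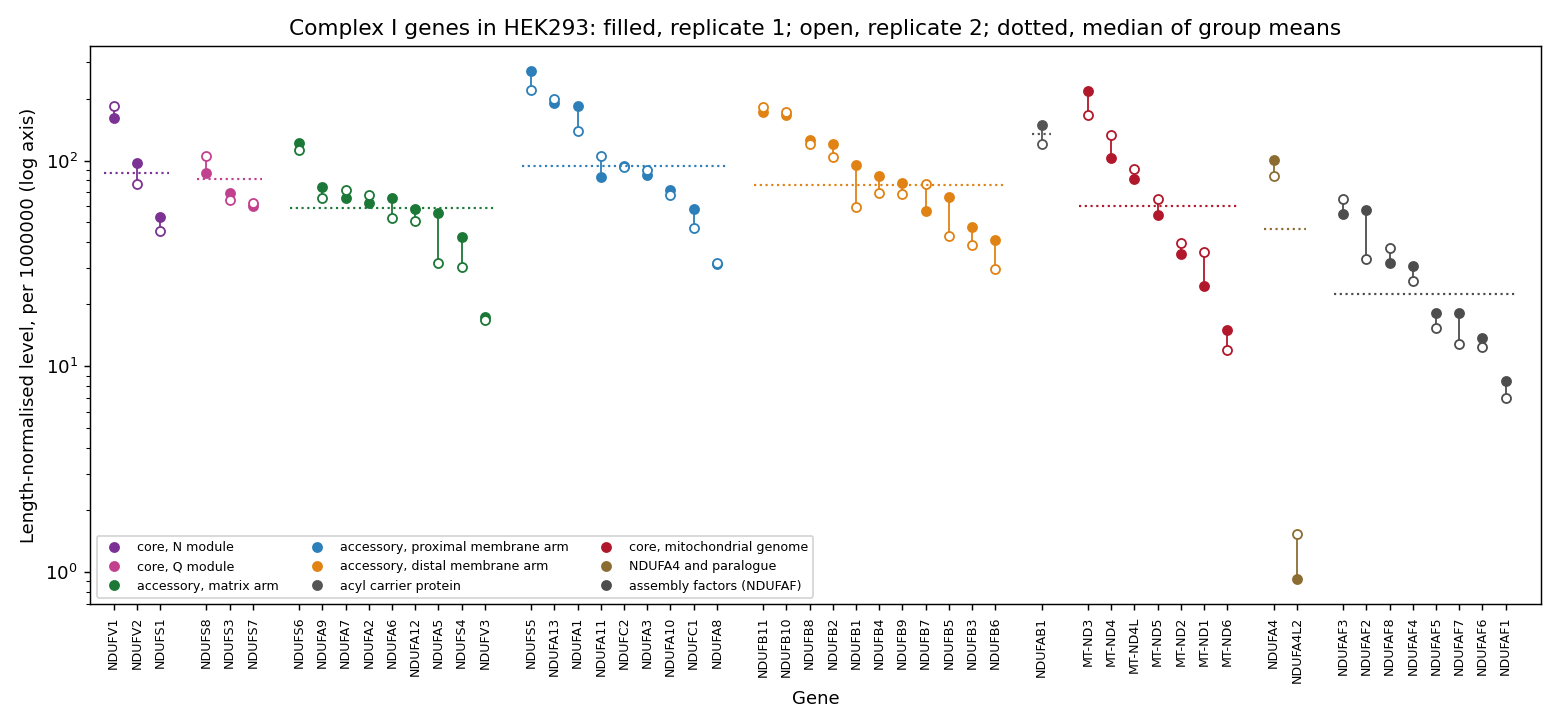
Length-normalised level per 1000000 (log axis) of 53 genes in HEK293 replicate 1 (filled) and replicate 2 (open), grouped by role, with a line joining the replicates and a dotted line at the median of the gene means of the group. NDUFS5 at 272 and 221 is the highest nuclear subunit gene, NDUFV3 at 17.4 and 16.8 the lowest, and NDUFA4L2 lies far below all others at 0.927 and 1.53.

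The core subunits of the nucleus form the catalytic parts of the matrix arm. Their 7 genes had a median level of 86.5 in replicate 1 and 76.8 in replicate 2, and ranged from 49.3 for NDUFS1 to 173 for NDUFV1. In the module that oxidises NADH, NDUFV1, which binds the flavin and is the site of NADH oxidation, had levels of 161 and 185. NDUFV2, an iron-sulfur partner of NDUFV1, had levels of 97.8 and 76.8. NDUFS1, the largest subunit of the matrix arm and the carrier of further iron-sulfur clusters, had levels of 53.0 and 45.6. The same order, NDUFV1 above NDUFV2 above NDUFS1, held in both libraries. By normalised count, which is not divided by length, NDUFS1 held 4409 and 3669 and NDUFV1 held 4598 and 5179, so that these genes lay much closer together than on the length-normalised scale. NDUFV2, at 2208 and 1684 normalised counts, lay below NDUFS1 on that scale in both libraries, the reverse of their order per length.

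The quinone module passes electrons to ubiquinone. NDUFS8, which holds iron-sulfur clusters on the way to the quinone site, had levels of 86.5 and 105. NDUFS3 followed at 69.6 and 64.2. NDUFS7, the carrier of the terminal iron-sulfur cluster, had levels of 59.8 and 62.2. NDUFS8 lay above NDUFS3 and NDUFS3 above NDUFS7 per length in both libraries. By normalised count NDUFS7, at 1344 and 1403, lay above NDUFS3, at 1246.5 and 1194. With the length of 1 reference transcript per gene NDUFS7 was also higher, at a mean of 73.8 against 55.6. The genes of the NADH module spanned 3.51-fold. The medians of the modules were in opposite orders in the 2 libraries.

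The accessory subunits had a median level of 75.9 in replicate 1 and 69.0 in replicate 2 over 30 genes. The ratio of the accessory to the core median was -0.17 ± 0.03 on the log2 scale (SD, n = 2), a small difference with the accessory median lower in both libraries. With protein-coding transcripts alone the direction turned, at 0.32. Within the accessory subunits, the 9 genes of the matrix arm had the lowest median, at 62.4 and 52.6. The 9 genes of the proximal membrane arm had medians of 85.1 and 93.3, and the 11 genes of the distal membrane arm had 83.7 and 69.2. Both membrane-arm medians lay above the matrix-arm median in each library on this scale. By normalised count the distal median, at 1332 and 1126, was below the matrix median of 1311 and 1160 in replicate 2.

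In the matrix arm NDUFS6, a zinc-binding subunit, led with levels of 122 and 113. NDUFA9, a member of the short-chain dehydrogenase family, had levels of 74.1 and 66.1, and NDUFA7 had 66.0 and 71.9. NDUFA2, which has a thioredoxin-like fold, had levels of 62.4 and 68.1. By mean level, these 4 genes were followed by NDUFA6, an LYR-motif protein that docks an acyl carrier protein, at 65.4 and 52.6. In replicate 1 NDUFA6 lay above NDUFA2. NDUFA12 came next at 58.4 and 51.1. NDUFA5 had levels of 55.3 and 31.6, one of the wider gaps between the libraries. NDUFS4, a subunit whose loss causes Leigh syndrome, had levels of 42.5 and 30.3.

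NDUFV3, which sits on the NADH module, was the lowest nuclear subunit gene per length, at 17.4 and 16.8 or 17.1 ± 0.42 (SD, n = 2), and stood at percentile 68.0. Its count was not low. It held 2083 and 2042 normalised counts, and 26 of the other subunit genes had a lower mean. The transcripts behind these counts were long. NDUFV3-202, which encodes 473 amino acids in 5725 nt, held 50.1% ± 0.19 of the gene's count (SD, n = 2), and NDUFV3-201, which encodes 108 amino acids in 4676 nt, held 36.5% and 39.5%. Both the long and the short protein of this gene were thus represented by transcripts in about the same shares in both libraries.

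The proximal membrane arm held the highest nuclear subunit genes. NDUFS5, a small protein of the intermembrane-space face, had levels of 272 and 221, and NDUFA13, also known as GRIM-19, had 189.8 and 199. NDUFA1, a short membrane-spanning subunit encoded on the X chromosome, had levels of 183 and 139.8. These genes lay above every other accessory gene of their arm in both libraries. With protein-coding transcripts alone NDUFA13 fell to a mean of 67.6, below NDUFC2 at 93.7, NDUFA11 at 84.8 and NDUFA3 at 81.8. NDUFA11 had levels of 83.5 and 105, NDUFC2 had 94.0 and 93.3, and NDUFA3 had 85.1 and 90.4. Lower in this arm lay NDUFA10, a relative of nucleoside kinases, at 72.0 and 68.0, and NDUFC1 at 58.1 and 47.1. NDUFA8, another protein of the intermembrane-space face, was the lowest at 31.4 and 31.6, with almost no gap between the libraries.

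In the distal membrane arm, NDUFB11, which is also X-linked, had levels of 172 and 183, and NDUFB10 had 166 and 172. NDUFB8 followed at 126 and 121, and NDUFB2 at 119.7 and 104.2. This upper set was separated from NDUFB6 at 40.9 and 29.7 and NDUFB3 at 47.3 and 39.0, the lowest of the arm. Levels of NDUFB1, NDUFB4, NDUFB9, NDUFB7 and NDUFB5 lay between, with means from 54.6 for NDUFB5 to 77.5 for NDUFB1. NDUFAB1, the mitochondrial acyl carrier protein, which is present in both arms and also serves fatty acid synthesis, had levels of 149 and 121.

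From the highest to the lowest, the nuclear subunit genes spanned 14.4-fold. Neighbours in this order were rarely separated. A pair was called ordered when the libraries did not disagree on which gene was higher and the gap between the gene means was wider than both SDs added together. Of 36 neighbouring pairs of subunit genes 4 met this, namely NDUFS5 above NDUFA13, NDUFA13 above NDUFB11, NDUFC2 above NDUFA3, and NDUFA8 above NDUFV3. Over all pairs of the 47 members, 874 of 1081, or 80.9%, were ordered. The lowest place depended on how length was treated. With the length of 1 reference transcript per gene (MANE Select) the lowest subunit gene was NDUFA9 at 6.80, and with protein-coding transcripts alone it was NDUFS7 at 4.66, while NDUFS5 stayed the highest subunit gene in both.

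NDUFA4 bears a complex I name, but its protein is part of complex IV, and RefSeq now lists the gene as COXFA4. Its level was 100.3 in replicate 1 and 83.8 in replicate 2, within the range of the subunit genes. Transcripts that retain an intron held 66.3% and 73.7% of its count. With protein-coding transcripts alone its mean was 8.77, below every subunit gene except NDUFC1 and NDUFS7. NDUFA4L2, the paralogue of NDUFA4, best known as a gene induced by low oxygen, had levels of 0.927 and 1.53, from 20.1 and 32.4 normalised counts. The log2 ratio of NDUFA4 to NDUFA4L2 was 6.27 ± 0.69 (SD, n = 2). NDUFA4L2 stood at percentile 14.5 and was the lowest of the 47 members in both libraries. A stretch of 33 of its exon bases is shared with SHMT2 on the opposite strand, a gene with a mean of 7950 normalised counts, and the sources used here do not state whether counting used strand.

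The NDUFAF assembly factors had lower levels than the subunits. Their median was 24.4 in replicate 1 and 20.7 in replicate 2, so the subunit median was 3.18-fold and 3.35-fold higher. On the log2 scale the ratio of the assembly factor to the subunit median was -1.71 ± 0.05 (SD, n = 2). Every alternative of processing kept this direction, but its size ran from -0.95 with transcripts of unchanged version to -3.02 with protein-coding transcripts alone. Of the 8 genes 1, NDUFAF3, lay at or above percentile 90, and the median gene stood at percentile 74.0. The ranges of the groups overlapped, as 11 subunit genes had means below that of NDUFAF3. NDUFV3 was the 1 subunit gene below the median of the assembly factors.

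NDUFAF3, which joins NDUFAF4 in building the quinone module, had levels of 55.2 and 65.1, and NDUFAF4 had 30.6 and 25.9. NDUFAF2, a paralogue of the subunit NDUFA12 that holds its place during assembly, had levels of 57.2 and 33.3, the widest gap of the group. NDUFAF8, a stabiliser of NDUFAF5, had levels of 31.8 and 37.8. NDUFAF5, which hydroxylates an arginine of NDUFS7, had levels of 18.1 and 15.4. NDUFAF7, an arginine methyltransferase, had 18.2 and 12.8. NDUFAF5 lay well below its substrate NDUFS7 in both libraries. NDUFAF6 had levels of 13.7 and 12.4, and NDUFAF1, which acts on the membrane arm, was the lowest assembly factor at 8.43 and 6.995.

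Complex I assembly factors with other symbols were counted as a further list of 12 genes. Their median level was 16.2 in replicate 1 and 14.7 in replicate 2, below the NDUFAF median in both libraries. By normalised count this order was reversed, with medians of 781 and 839 against 519 and 476 for the NDUFAF genes. Per length, COA1, at 86.4 and 73.6, TIMMDC1, at 68.0 and 52.9, and DMAC1, at 59.9 and 45.6, stood above the rest. These levels include all transcripts. Protein-coding transcripts held 79.5% and 76.9% of the normalised count of COA1, 2.95% and 4.83% of TIMMDC1, and 37.9% and 45.3% of DMAC1. ECSIT, ACAD9 and TMEM126B, which work with NDUFAF1, had levels of 24.4 and 23.6, of 15.6 and 17.3, and of 13.7 and 9.73. Each of these partners exceeded NDUFAF1 per length in both libraries when all transcripts were summed. Protein-coding transcripts held 84.3% and 84.1% of the count of ECSIT, 83.3% and 57.5% of ACAD9, and 59.3% and 13.3% of TMEM126B. For NDUFAF1 they held 96.7% and 90.7%. The order with protein-coding transcripts alone was not worked out for these partners. By normalised count TMEM126B, at 411 and 276, was below NDUFAF1, at 351 and 287, in replicate 2. NUBPL, an iron-sulfur cluster carrier for complex I, had the lowest mean of the list, with levels of 8.78 and 10.5, although TMEM126B was lower in replicate 2.

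The MT-ND genes spanned 14.2-fold, about as wide as the nuclear subunits. MT-ND3 led with levels of 218 and 166, and MT-ND4 had 103 and 133. MT-ND4L had 81.6 and 90.6, and MT-ND5 had 54.6 and 65.1. MT-ND2 had 34.9 and 39.7, and MT-ND1 had 24.4 and 36.1. The lowest was MT-ND6, the gene on the other strand of the mitochondrial genome, at 14.9 and 12.04. The whole order was the same in both libraries on this scale, but with an effective length MT-ND4L, at a mean of 120.2, lay above MT-ND4, at 63.4. MT-ND4L and MT-ND4 are carried on 1 mRNA, and their reading frames share 7 bases at chrM:10760-10766 (GRCh38, plus strand), shown in capitals because reads over them belong to both genes:

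MT-ND4L and MT-ND4: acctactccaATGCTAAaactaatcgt

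Per length, the median MT-ND gene lay below the median nuclear core gene, at a log2 ratio of -0.45 ± 0.30 (SD, n = 2), with -0.66 in replicate 1 and -0.24 in replicate 2. With protein-coding transcripts alone the sign turned, at 0.31 ± 0.36. The MT-ND genes each have 1 listed transcript, of the class protein_coding, so that this choice lowered the nuclear genes but not the MT-ND genes. Copies of the MT-ND genes elsewhere in the genome were not looked for, so reads assigned to any such copies were not measured.

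Between the 2 libraries, 0 of 47 members differed more than 2-fold in normalised count, against 2.96% of the 13992 protein-coding genes. Past 1.5-fold there were 4 of 47, against 11.8%, a share near this background. These were NDUFAF2 (857 and 504 normalised counts, log2 difference -0.76 for replicate 2 over replicate 1), NDUFA5 (1967 and 1160, -0.76), NDUFA4L2 (20.1 and 32.4, 0.69) and NDUFB1 (894 and 572, -0.65). NDUFB5, at 1332 and 890.2 (-0.58), was the next and lay just inside 1.5-fold. NDUFA4L2 rests on few counts.

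Most members were lower in replicate 2. This held for 33 of 47 by normalised count, for 32 by length-normalised level and for 28 per 1000000 estimated counts, against 57.6%, 52.1% and 49.9% of the 13942 nuclear protein-coding genes averaging 10 normalised counts or more and above 0 in both libraries. The members' median log2 difference was -0.22, against -0.08 for those genes. The differences followed base composition. Of the 16 members in the lowest of 3 near-equal bins of GC content all 16 were lower in replicate 2, with a median log2 difference of -0.42, and of the 15 in the middle bin all 15 were, with -0.22. In the highest bin 2 of 16 were lower, and the median was 0.10. Bins of the 13942 genes, cut at 44.5% and 54.6% GC instead of 45.1% and 52.7%, had medians of -0.35, -0.09 and 0.26, and 94.4%, 65.9% and 12.5% of their genes were lower in replicate 2. At those cuts 13 of 13, 19 of 20 and 1 of 14 members were lower. Across the 47 members Pearson's r between the log2 difference and GC content was 0.862 and Spearman's rho 0.902, and across all those genes 0.615 and 0.776. Genes are not independent replicates and all share the same 2 libraries, so this is a description. GC content ran from 33.6% for NDUFA5 to 66.2% for NDUFS7. Its part in the differences was not tested.

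**Figure D2:**
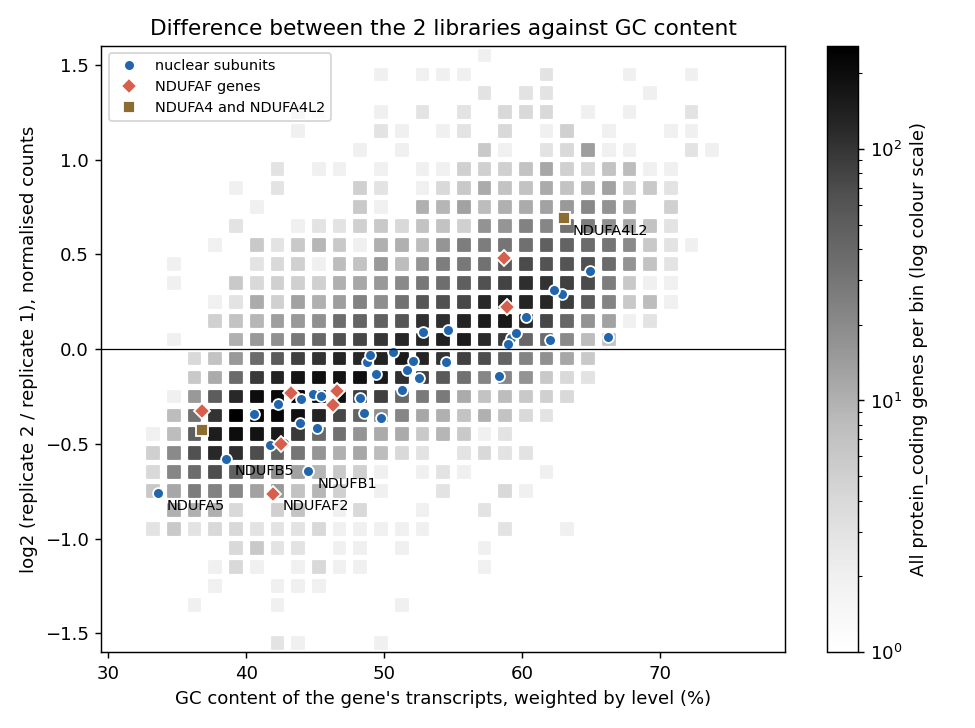
The log2 difference in normalised count, replicate 2 over replicate 1, against the GC content (%) of each gene's transcripts weighted by level, for the nuclear subunits, the NDUFAF genes, and NDUFA4 with NDUFA4L2, over a grey map of 13942 protein-coding genes (genes per bin, log colour scale; bins beyond the vertical axis are not shown). Members of low GC content lie below 0 and those of high GC content mostly above it, with NDUFA5 at 33.6% GC and -0.76.

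Most MT-ND genes differed in direction from nuclear members of similar GC content. MT-ND1, MT-ND2, MT-ND4, MT-ND4L and MT-ND5 were higher in replicate 2, by 0.54, 0.16, 0.35, 0.12 and 0.23 on the log2 scale, at GC contents between 43.0% and 47.7%. MT-ND3 and MT-ND6 were lower, at -0.42 and -0.34, and had the lowest GC contents of the set, at 40.2% and 42.7%. MT-ND1, with the highest GC content of the set, had the largest rise. Nuclear members of similar GC content were lower in replicate 2.

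Much of the count of several genes was assigned to transcripts without a full reading frame. GENCODE labels each transcript as protein_coding, as a target of nonsense-mediated decay because of an early stop codon, as retaining an intron, or as having no defined coding sequence. The assignment is that of RSEM, which uses a model to split ambiguous reads between transcripts, and transcripts of 1 gene share most of their bases. The share of a member's normalised count on protein_coding transcripts had a median of 85.9% in replicate 1 and 84.2% in replicate 2. Among members with several transcripts it was 85.4% and 83.4%, against 92.1% and 91.3% for 12926 protein-coding genes of that kind. At least 90% was protein_coding in both libraries in 19 of 47 members, among them NDUFS1, NDUFS5, NDUFS6, NDUFB10 and NDUFB11, against 51.8% of the 13992 protein-coding genes that averaged 10 normalised counts or more. Less than 50% was protein_coding in both libraries in 10 of 47 members, against 8.93%. NDUFS7 was the lowest at 6.38% and 8.67%, followed by NDUFAF5 at 8.40% and 14.4% and NDUFC1 at 23.1% and 17.2%.

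**Figure D3:**
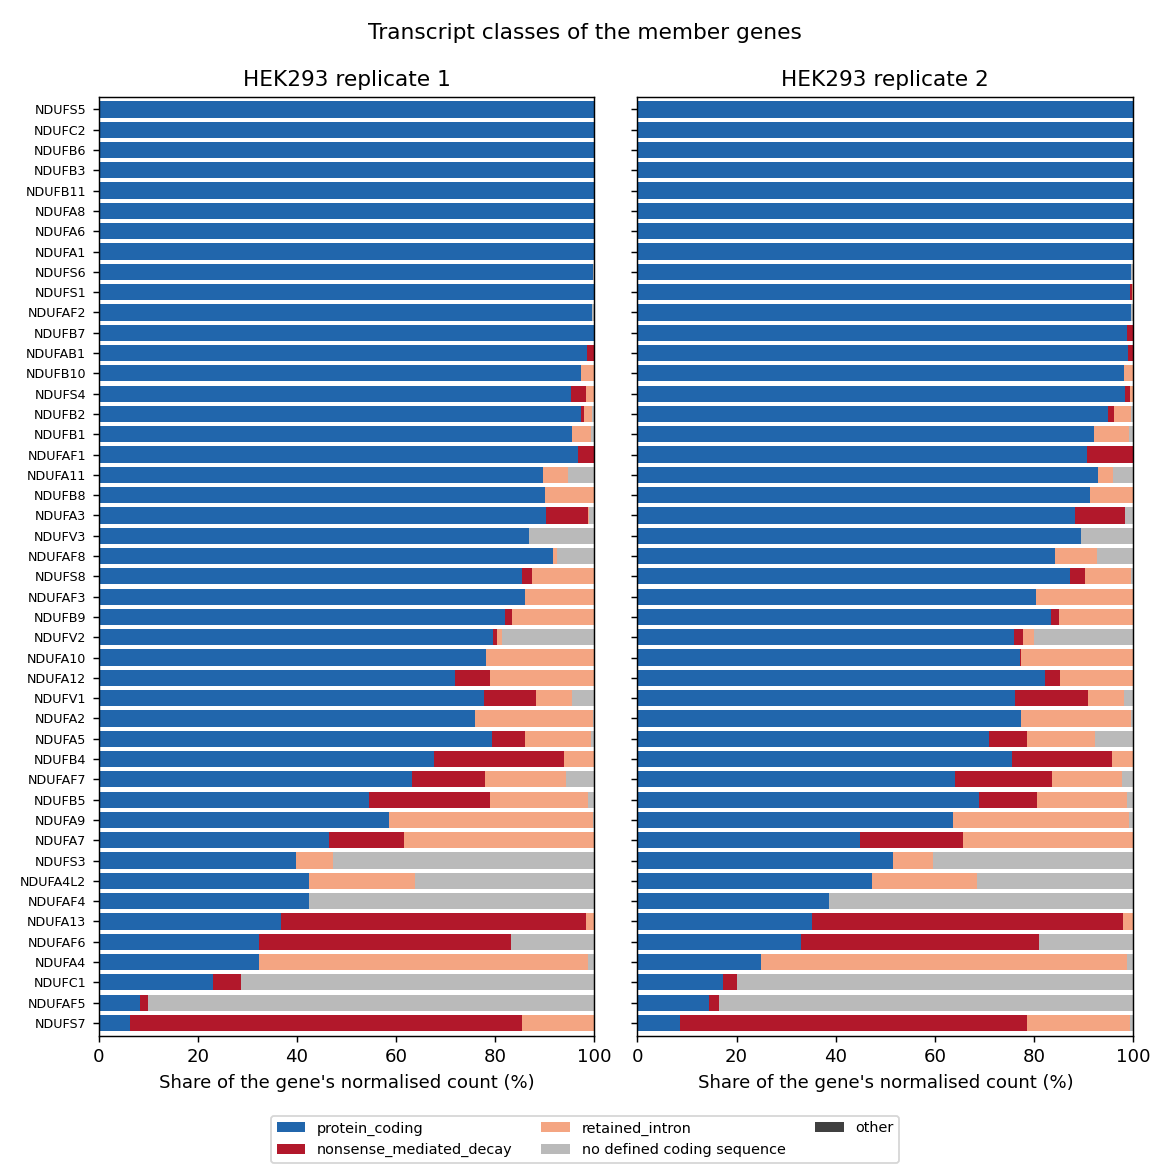
Share (%) of normalised count, for 46 member genes, on each class of GENCODE transcript in replicate 1 (left) and replicate 2 (right), sorted by the mean protein_coding share. NDUFS7 and NDUFA13 are mostly assigned to nonsense-mediated decay transcripts, with 6.38% and 36.7% protein_coding in replicate 1, and the genes at the top are at 100%.

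The leading transcript, the one with the highest normalised count, was not protein_coding in both libraries in 6 of 45 members with several transcripts, against 8.27% of such genes. These were NDUFS7, NDUFA13, NDUFA4, NDUFC1, NDUFAF5 and NDUFAF6. NDUFA4-204, which retains an intron, held 42.3% and 39.9% of the NDUFA4 count. NDUFC1-202, with no defined coding sequence, held 61.9% and 79.6% of NDUFC1, and NDUFAF5-206, of the same class, held 32.6% and 29.9% of NDUFAF5. NDUFAF6-204, a nonsense-mediated decay transcript, held 29.8% and 27.8% of NDUFAF6.

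For NDUFS7 and NDUFA13 the leading transcript differed from the MANE Select transcript, the reference transcript agreed between annotation projects, by the end of 1 exon, and for NDUFB11 by the start of 1, beside small differences at the transcript ends. The windows around these exon ends are shown because the choice between both forms decides how much of each gene's count goes to the full reading frame. They are written 5′ to 3′ on the gene's strand from GRCh38, with capitals marking the bases that belong to 1 of the 2 transcripts only.

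NDUFS7, chr19:1383928-1383952, plus strand: tggcggtgctGTCAGgtgagcgcgg

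NDUFA13, chr19:19527343-19527382, plus strand: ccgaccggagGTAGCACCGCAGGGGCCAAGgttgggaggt

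NDUFB11, chrX:47142728-47142754, minus strand: ttctccacagAACCCAGactcccatgg

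In NDUFS7 the 5 capital bases (chr19:1383938-1383942) end an exon of the MANE transcript NDUFS7-201, which encodes 213 amino acids, and are absent from NDUFS7-205, which encodes 66 and is labelled as a decay target. NDUFS7-205 held 79.0% of the gene's count in replicate 1 and 69.9% in replicate 2. Apart from these bases the transcripts differ by 8 bases at the 3′ end, and 31 of the 696 stretches of 50 bases in NDUFS7-205 do not occur in NDUFS7-201. A minority of reads could therefore tell them apart. The letters GT follow both exon ends, as they do at most human splice donors.

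In NDUFA13 the 20 capital bases (chr19:19527353-19527372) belong to NDUFA13-207, which encodes 74 amino acids and is labelled as a decay target, and are absent from the MANE transcript NDUFA13-204, which encodes 144. The annotation marks the model of NDUFA13-207 as incomplete at an end, so its 74 amino acids may not be a full length. NDUFA13-207 held 60.8% and 61.2% of the count, and NDUFA13-204 held 29.1% and 29.3%. Here too GT follows both exon ends. The shares differed little between the libraries.

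In NDUFB11 the 7 capital bases (chrX:47142738-47142744) begin an exon of the MANE transcript NDUFB11-202, which encodes 153 amino acids, and are absent from NDUFB11-201, which encodes 111. Both are labelled protein_coding. NDUFB11-201 held 76.1% and 75.8% of the count and NDUFB11-202 the rest. AG precedes both exon starts, as at most splice acceptors. The gene's full share of protein_coding count therefore included a transcript with a shorter reading frame.

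The leading transcript was not the same in both libraries in 10 of 45 members, against 18.4% of 12926 genes with several transcripts. In NDUFB5, NDUFB5-204 held 30.4% of the count in replicate 1 and 8.20% in replicate 2, while NDUFB5-216 held 0.924% and 31.8%. In NDUFB2, NDUFB2-202, which encodes 41 amino acids, held 69.1% and 32.6%, and the MANE transcript NDUFB2-201, which encodes 105, held 20.8% and 52.1%. NDUFB3 exchanged NDUFB3-204 (69.2% and 35.1%) for NDUFB3-202 (26.7% and 55.4%), both of which encode the same length of 98 amino acids. NDUFAF8 exchanged NDUFAF8-205 (57.5% and 23.0%) for NDUFAF8-201 (34.2% and 61.3%). These 4 genes had the wider exchanges.

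In the other 6 the shares moved less. NDUFB6-202 held 43.2% and 24.2% of NDUFB6, and NDUFB6-201 held 36.8% and 53.1%. In NDUFS3, NDUFS3-203, which has no defined coding sequence, held 52.4% and 40.0%, and the MANE transcript NDUFS3-201 held 37.6% and 47.8%. The leading pairs of NDUFA2 (NDUFA2-201 and NDUFA2-204), NDUFC2 (NDUFC2-202 and NDUFC2-205), NDUFAF4 (NDUFAF4-201 and NDUFAF4-202) and NDUFA4L2 (NDUFA4L2-206 and NDUFA4L2-207) moved less again, as the plot of leading transcripts shows. Gene sums do not depend on which of these led, except through transcript length.

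**Figure D4:**
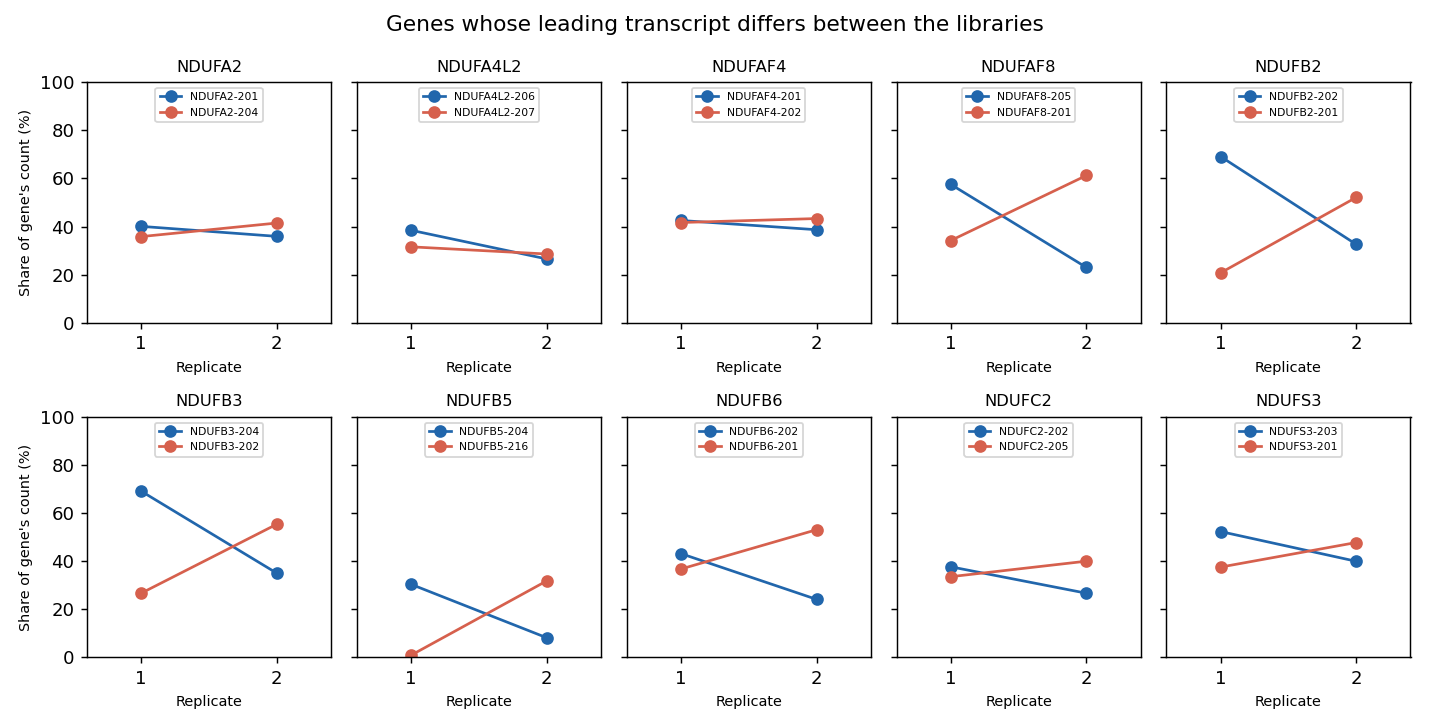
Share (%) of the gene's normalised count held by the transcript that led in replicate 1 (blue) and by the one that led in replicate 2 (red), in each replicate, for the 10 members in which these differed. The exchange is wide in NDUFB5, NDUFB2, NDUFB3 and NDUFAF8 and narrow in NDUFA2 and NDUFAF4, where the lines lie close together.

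The leading transcript was the MANE Select transcript in both libraries in 20 of 47 members, against 52.5% of the same 13992 genes. None of the 46 MANE Select transcripts listed for members had the same version in the tables as in GENCODE v44, while 317 of all 393 member transcripts did. Over all genes 1194 of 18346 MANE Select transcripts had the same version. Lengths given here for MANE Select transcripts were taken from GENCODE v44, and the models used for the counting may have had others.

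Some counts could include reads of other genes. Exon bases were shared with a gene of at least 10 normalised counts in 18 of 47 members, against 36.3% of the 13979 nuclear genes among those 13992, so that the members' share was near this background. It was on the opposite strand in 13 members, against 28.3%, and on the same strand in 9, against 11.3%. NDUFB2 shared 1239 of its 4447 exon bases with BRAF on the opposite strand. NDUFB8 shared 325 of 1999 with HIF1AN, and NDUFAF3 shared 248 of 1727 with DALRD3, both on the opposite strand. On the same strand, NDUFS3 shared 721 of 3679 with PTPMT1, and NDUFC2 shared 428 of 2302 with the readthrough gene NDUFC2-KCTD14, which held 165 and 131 normalised counts. These values are uncertain to that extent.

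Processed pseudogenes, inactive copies made from mRNA, held 9.25% or less of the joint count with their parent gene in each library. The annotation held 63 pseudogenes named after 21 members, and for 13 of these members their pseudogenes held less than 1% of the joint count in both libraries. The matching share over all genes with pseudogenes was not worked out, so this count is not read as particular to the members. NDUFV2P1 held 6.11% and 7.45% of the count of NDUFV2 and its copy. The copies of NDUFA4 held 6.41% and 6.86%, and those of NDUFAF2 held 5.38% and 9.25%. For these 3 genes the reads of gene and copy may be split.

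Members often lay close to a gene read in the other direction. A protein-coding gene on the opposite strand started at most 1000 nt upstream of the start of 15 of 47 members (31.9%). This compared with 1522 of 13979 nuclear protein-coding genes averaging 10 normalised counts or more (10.9%). Opposite-strand pairs that overlapped at their starts were not counted in either share. NDUFS6 and MRPL36 started 41 nt apart, as did NDUFB5 and MRPL47, and both partners encode proteins of the mitochondrial ribosome. NDUFS1 lay 76 nt from EEF1B2, a translation elongation factor with a mean of 7493 normalised counts, and NDUFAF7 lay 35 nt from CEBPZ. The partners ranged from genes near 0, such as MORN5 beside NDUFA8 with a mean of 3.38, to EEF1B2. Members were short as well, with a median transcript length of 766 nt against 2865 nt.

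The sequences from 250 bases before to 50 after the start site were given by RefSeq (GRCh38.p14) for 41 of the 47 members. These were searched on both strands for 3 short motifs. GCATGCGC, part of the site of NRF1, a regulator of nuclear genes for respiration, occurred in 8 of 41 (19.5%), against 4.89% of 15842 protein-coding genes. AAGATGGCG, letters found in sites of YY1, occurred in 7 of 41 (17.1%), against 3.21%. CCGGAAGT, an ETS-family motif, occurred in 2 of 41 (4.88%), against 6.97%. A match is a description of letters and not a bound site.

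NDUFS7 and NDUFA6 held both the NRF1 and the YY1 letters, and their windows are shown for that reason with both motifs in capitals. The YY1 letters lie after the start of transcription in each. The NDUFS7 window (chr19:1383657-1383956, plus strand) also contains the exon end shown above. The NDUFA6 window is chr22:42090723-42091022 on the minus strand.

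NDUFS7: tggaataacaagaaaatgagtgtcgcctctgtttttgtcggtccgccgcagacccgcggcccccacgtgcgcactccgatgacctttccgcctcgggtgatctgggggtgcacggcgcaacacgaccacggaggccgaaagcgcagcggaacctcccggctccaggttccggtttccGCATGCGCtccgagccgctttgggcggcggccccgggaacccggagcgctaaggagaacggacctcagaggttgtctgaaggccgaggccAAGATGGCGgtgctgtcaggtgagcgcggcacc

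NDUFA6: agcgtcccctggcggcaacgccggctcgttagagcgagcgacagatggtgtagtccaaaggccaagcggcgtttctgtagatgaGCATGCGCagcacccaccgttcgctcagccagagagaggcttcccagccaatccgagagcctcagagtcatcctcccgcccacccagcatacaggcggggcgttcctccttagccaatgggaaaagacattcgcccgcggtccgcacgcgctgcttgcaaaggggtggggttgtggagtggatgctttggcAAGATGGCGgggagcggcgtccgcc

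With all transcripts summed, levels of the 2 genes were close, at 59.8 and 62.2 for NDUFS7 and 65.4 and 52.6 for NDUFA6. On this scale they lay near the middle of the subunit genes or below it. With protein-coding transcripts alone they were far apart, at means of 4.66 for NDUFS7 and 59.0 for NDUFA6. The 8 genes with the NRF1 letters were NDUFA5, NDUFA6, NDUFA8, NDUFAF4, NDUFAF5, NDUFB4, NDUFS6 and NDUFS7, with mean levels from 16.8 for NDUFAF5 to 118 for NDUFS6. The 7 with the YY1 letters were NDUFA6, NDUFA7, NDUFA9, NDUFAF8, NDUFB8, NDUFS4 and NDUFS7, with means from 34.8 for NDUFAF8 to 123 for NDUFB8. Neither set was confined to 1 role or to high or low levels.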

How the data were processed

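The authors' deposited tables gave, per transcript, an RSEM estimated count (expected count, not divided by length) and a signal that per the file headers is the EB-Seq-Normalised value. That signal was found to be the estimated count over a constant of each library, 0.945 in replicate 1 and 1.08 in replicate 2. The submitters' processing notes name FastQC, STAR 2.7.0d, RSEM 1.3.3 and R 3.6.3, without order or settings. The study states GRCh38 as its genome, and the strand setting was not given in the sources used here.

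Of 206696 transcripts listed, 202217 matched GENCODE v44 without version, 173547 with the same version, holding 96.9% and 96.8% of the counts. Transcripts were summed per gene. Normalised counts (the authors' deposited signal) served to compare libraries. Estimated counts over GENCODE v44 length, scaled to 1000000 per library without effective-length correction, served to compare genes. Comparisons of libraries used genes averaging 10 normalised counts or more. The pseudogene, overlap and promoter searches used GENCODE v44, GRCh38 and RefSeq.

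Members were named, except 1 subunit gene that, like 1 marker, is not reported here by name; it is left out of the plots by gene but enters counts and medians over groups. Transcripts were named where the leading transcript differed between the libraries or was not protein_coding in either, and NDUFV3 and NDUFB11 transcripts were named after their values were seen. The members and lists were chosen with earlier results of these data known. Python 3.11.15, pandas 2.3.3 and numpy 2.4.6 were used. The alternatives tried are given in the closing section. A table of 1 further gene's transcripts was not used.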

Additional observations from a re-analysis of the deposited data

How the results depend on the processing

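No paired analysis was possible because there was 1 group. The libraries could not be left out of the counts of genes that differ between them. Where 1 library was left out, the subunit share of the counts ran from 0.256% to 0.263%, the median subunit level from 69.2 to 77.6, the highest-to-lowest ratio from 13.2 to 15.6, the median protein_coding share from 84.2% to 85.9%, and the log2 ratios from -1.74 to -1.67 for assembly factors to subunits, -0.19 to -0.15 for accessory to core, -0.66 to -0.24 for MT-ND to core, and 5.78 to 6.76 for NDUFA4 to NDUFA4L2. None of these turned a direction.

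With protein-coding transcripts alone, 2 results turned. The accessory to core log2 ratio became 0.32 and the MT-ND to core ratio 0.31, and the cause was not tested beyond the fact that this choice leaves out other transcripts of the nuclear genes. It also gave a subunit share of 0.209%, a median level of 57.6, a highest-to-lowest ratio of 58.4, and log2 ratios of -3.02 for assembly factors and 4.19 for NDUFA4. Without length normalisation the highest-to-lowest ratio was 8.08, and the log2 ratios were -1.52 for assembly factors, -0.69 for accessory and -0.99 for MT-ND genes. An effective length (length less 200 plus 1, at least 50 nt) gave a median of 50.8, a highest-to-lowest ratio of 21.5 and an accessory ratio of -0.0032, with opposite signs in the libraries. The MANE Select length gave a highest-to-lowest ratio of 44.1 and log2 ratios of -2.83, -0.28 and 4.92 for assembly factors, accessory genes and NDUFA4. Transcripts of the same version alone gave a median of 35.1 and ratios of -0.95 for assembly factors and -0.57 for accessory genes. They gave no highest-to-lowest ratio, as 3 subunit genes were at 0. A library total without misc_RNA, ribozyme and snRNA gave a subunit share of 0.313%.

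At 1.5-fold 4 members differed between the libraries, where 0 did at 2-fold. The results on shares and on calls between libraries were already without length normalisation, so length-normalised values, an alternative chosen after seeing the data, took that place. They gave a subunit share of 0.334% and a median protein_coding share of 89.2%. The remaining 18 alternatives moved their result by less than the spread between libraries or, for counts, by less than 1.5 times.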
